A study of Mus musculus with 118 samples.

Results

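The cerebellin genes *Cbln1*, *Cbln2*, *Cbln3* and *Cbln4* and the delta receptor gene *Grid1* were followed through the single-cell libraries of somatostatin-positive (SOM+) interneurons of the adult mouse cortex. These 5 genes were chosen by name, as ligands and a receptor of one synaptic pathway, among the 23998 gene symbols of the counts table. The libraries came from Patch-seq, in which a neuron in a slice is recorded through a patch pipette and its cytosol is then drawn into that pipette for sequencing. According to the study's methods the mice carried SOM-Cre and the Ai9 reporter, so that tdTomato marks every cell in which the somatostatin promoter has driven Cre at any time, including cells that no longer make somatostatin. The labels give an area, primary visual (V1) or primary somatosensory (S1) cortex, and a layer, 4 (L4) or 5 (L5), to each cell. They name no animal, age, sex or treatment.

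Cerebellins are secreted proteins of the C1q family that form hexamers and act in the synaptic cleft. One side of the hexamer binds neurexins on the presynaptic membrane, and the other side can bind the extracellular domain of a delta receptor, a glutamate receptor relative that acts as an adhesion molecule more than as a channel. *Cbln1* is best known from the cerebellum, where granule cells release it onto Purkinje cells, *Cbln3* depends on *Cbln1* for its secretion, and *Cbln4* is a known product of cortical SOM+ interneurons and also a ligand of the netrin receptors *Dcc* and *Neo1*. *Grid1* encodes GluD1, which is found at synapses of forebrain neurons. *Cbln4* also stands in the name of one somatostatin type of the reference atlas that the study used, beside *Hpse*, a heparan sulfate cleaving enzyme.

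A cell was kept when it had at least 1500 genes above 0, no more reads of *Slc17a7*, the vesicular glutamate transporter of excitatory neurons, than of *Gad1* and *Gad2* together, and at least 1 read of *Sst*. These rules kept 42 of 44 V1 L4 cells, 34 of 39 S1 L4 cells, 17 of 19 V1 L5 cells and all 16 S1 L5 cells. Total counts of kept cells ran from 97904 to 3295232 with a median of 1111833. *Sst* and *Gad1* were read in every kept cell, *Gad2* in 98.2% of them, the GABA transporter gene *Slc32a1* in 92.7% and *Lhx6*, a transcription factor of this lineage, in 80.7%. The summed level of 4 excitatory neuron markers had a median of 0 in each group and a highest value of 70.2 to 338 CPM, the counts of a gene scaled to the same total in every cell. The summed level of 4 oligodendrocyte markers ran from 0 to 3717 CPM among V1 L4 cells and 0 to 9510 among S1 L4 cells, and its highest value was 3445 in V1 L5 and 5334 in S1 L5. Since cells of one area and layer share unnamed animals, each of these 4 groups was treated as 1 sample, no test was run over cells, and intervals cover counting error only.

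No read of these libraries could match more than 1 of the 4 cerebellin transcripts over its whole length. Between pairs of coding sequences 61.9 to 74.6% of aligned bases were identical, and *Cbln4* shared 68.1% with *Cbln1*, 72.8% with *Cbln2* and 61.9% with *Cbln3*. Reads were 75 bases long, and the longest run of bases that any pair of the reference transcripts had in common was 21. The stretch of 75 coding bases in which *Cbln4* and *Cbln1* differed least still held 15 differences. It is shown because it is where a read of one gene is most like the other, with the differing bases in capitals, from coding base 60 of *Cbln4* and coding base 51 of *Cbln1* (5′ to 3′, GENCODE M21 transcripts).
Cbln4: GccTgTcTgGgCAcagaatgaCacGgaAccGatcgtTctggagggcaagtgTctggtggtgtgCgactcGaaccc
Cbln1: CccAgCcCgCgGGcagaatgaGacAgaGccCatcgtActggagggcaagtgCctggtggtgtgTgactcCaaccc
The stretch lies near the start of the coding sequence of both genes, before the part that encodes most of the C1q domain. Over the 6 pairs, the least different windows of this length held 9 to 22 differences. *Cbln4* has 3 exons, and no other gene of the annotation overlaps it.

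*Cbln4* was the main cerebellin of these cells, and it was more often read in L4 than in L5. In L4 it was detected in 28 of 42 V1 cells (66.7%, 95% Clopper-Pearson interval 50.4 to 80.4) and 23 of 34 S1 cells (67.6%, 49.5 to 82.6). In L5 it was detected in 5 of 17 V1 cells (29.4%, 10.3 to 56.0) and 2 of 16 S1 cells (12.5%, 1.55 to 38.3). Pooled over the cells of a group, *Cbln4* had 233 CPM in V1 L4 (12403 counts, exact Poisson interval 229 to 238 CPM). S1 L4 followed with 164.1 CPM (7879 counts, 160.5 to 167.7), V1 L5 with 95.9 CPM (1850 counts, 91.6 to 100.4) and S1 L5 with 11.9 CPM (230 counts, 10.4 to 13.5). In mean level the areas did not differ beyond their spread over days in either layer, and S1 L4 and V1 L5, also neighbours in this order, were not compared. In V1 L5 the highest cell gave 52.2% of these counts.

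The level in single cells fell into cells with none and cells with many reads. In V1 L4 the log2(CPM + 1) of *Cbln4* was 0 at the lowest, 7.21 at the median and 10.61 at the highest cell, and in S1 L4 it was 0, 6.99 and 10.16. In L5 the median cell had no read, and the highest cell was at 9.10 in V1 and 6.51 in S1. Each of the 28 V1 L4 cells with a read had at least 57 counts, and 22 of the 23 S1 L4 cells had at least 32, with the remaining one at 3 counts. The 5 V1 L5 cells had between 6 and 966 counts, and the 2 S1 L5 cells were at 70.5 and 90.03 CPM. Among cells with a read, the mean level was 8.07 ± 1.20 for V1 L4 (SD over 28 cells), 7.44 ± 1.67 for S1 L4, 6.75 ± 2.11 for V1 L5 and 6.33 ± 0.25 for S1 L5, and these means lay closer together than the means over all cells.

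**Figure D1:**
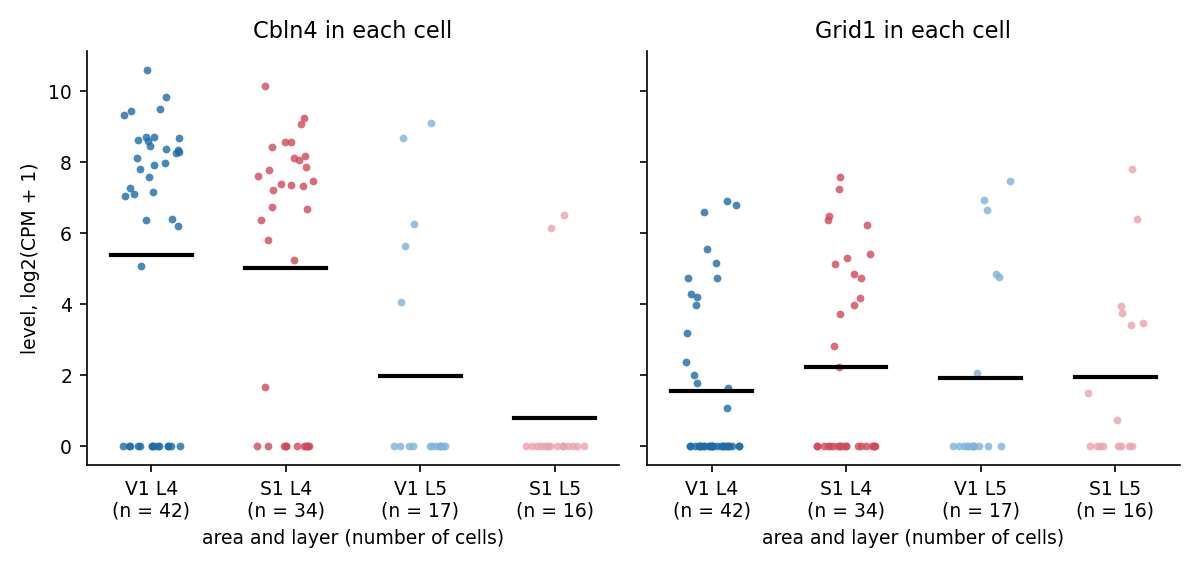
Level of *Cbln4* (left) and *Grid1* (right) in each kept cell, as log2(CPM + 1), by area and layer, with each point a cell and each black line the mean over the cells of the group. *Cbln4* splits into cells at 0 and cells mostly above 5, with group means of 5.38 and 5.03 in L4 and 1.99 and 0.79 in L5, and *Grid1* has means of 1.55 to 2.25.

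Sequencing depth stood beside these shares. Over all kept cells, the 58 cells with *Cbln4* had a median total of 1282110 counts and 7431 detected genes, and the 51 cells without it had 932229 counts and 5981 genes. In S1 L4 the order was the other way for counts, with 1111833 in cells with *Cbln4* and 1518058 in cells without. When every cell was thinned to 250000 reads, which left out 3 L5 cells, *Cbln4* was still read in 28 of 42 and 23 of 34 L4 cells of V1 and S1, and in 5 of 15 and 2 of 15 of their L5 cells.

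The comparison between layers asks whether SOM+ cells of L5 differ from those of L4 in the same area. It used the cells of the first recording series, the 6 earlier of 9 recording days, since all L5 cells come from 4 of these days. Recording days are named here after dates in the sample titles, which the labels do not explain. Days 1 and 2 held no L5 cell but gave 3 and 11 of the V1 L4 cells, and day 2 gave 4 of the S1 L4 cells. The differences over all these cells thus set L5 cells partly against L4 cells of other days. In V1 the mean log2(CPM + 1) of *Cbln4* was 1.99 over 17 L5 cells and 5.67 over 21 L4 cells, a difference of -3.69. It was -2.49 and -7.21 within the 2 recording days that held at least 2 cells of each layer (SD over days 3.34). These days held only 2 and 3 V1 L4 cells. In S1 the mean was 0.79 over 16 L5 cells and 3.88 over 16 L4 cells, a difference of -3.09, and within 3 days it was -4.38, -0.63 and -1.96 (SD over days 1.90). These days, 3, 4 and 5, held 6, 3 and 2 S1 L4 cells. On days 4 and 5 only 1 S1 cell of each layer had a *Cbln4* read. Both differences were thus larger than their SD over days, a spread over only 2 or 3 days, and had one sign in every such day. The study took its Patch-seq cells from 6 mice, and the labels do not say how the dates relate to these animals. Days therefore need not be separate animals.

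A gene was called when its difference was at least 1 in size with the same sign in every such day, among genes with at least 32 counts in at least 10 of the cells compared. *Cbln4* was the only member past this filter in the layer comparisons and was called lower in L5 in both areas, against a background of 18.5% of 6696 genes called in V1 and 15.1% of 6492 genes called in S1. From the lowest difference upwards it ranked 10 in V1 and 19 in S1, where the medians of all genes were 0.15 and 0.27. It passed the filter through its L4 cells, as 15 L4 and 4 L5 cells of V1 and 8 L4 and 2 L5 cells of S1 reached 32 counts, so a large difference could only be in this direction, and in S1 it passed with the smallest number of cells allowed. In the first series together, 24 of 37 L4 cells (64.9%, 47.5 to 79.8) and 7 of 33 L5 cells (21.2%, 8.98 to 38.9) had a *Cbln4* read.

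Markers of other cells were compared over the same cells. The summed markers of oligodendrocytes had a median of 68.7 CPM in L4 and 162.5 CPM in L5, those of SOM+ interneurons 4091 and 4283 CPM, those of microglia 0 and 1.22 CPM, and those of excitatory neurons, astrocytes and other interneurons 0 in both layers. Among L4 cells of the first series the oligodendrocyte sum was 71.5 CPM in cells with *Cbln4* and 44.4 CPM in cells without. Over the L4 cells of both series the order was the other way, at 173.2 and 218.5 CPM. Among L5 cells the microglia sum was 15.4 CPM in cells with *Cbln4* and 0 in cells without. The part of these markers in the layer difference was not tested.

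The area comparison in L4 bears most directly on the study's question of how SOM+ cells of V1 and S1 differ. *Cbln4* was read in like shares of the V1 L4 and S1 L4 cells, and the sign of its difference changed between days. Within 5 days S1 minus V1 was -1.51, 0.07, -4.02, 0.48 and 2.54. A read was found in 71.4% of V1 and 56.2% of S1 cells of L4 from the first series, and in 61.9% and 77.8% from the second. In this comparison 3.20% of 9201 genes were called, and neither *Cbln4* nor *Grid1*, the members past the filter, was among them. In L5 the difference for *Cbln4* was -1.19 with an SD over days of 1.98, and it was negative in 3 of 4 days. No member passed the filter there, where 12.7% of 6402 genes were called.

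**Figure D2:**
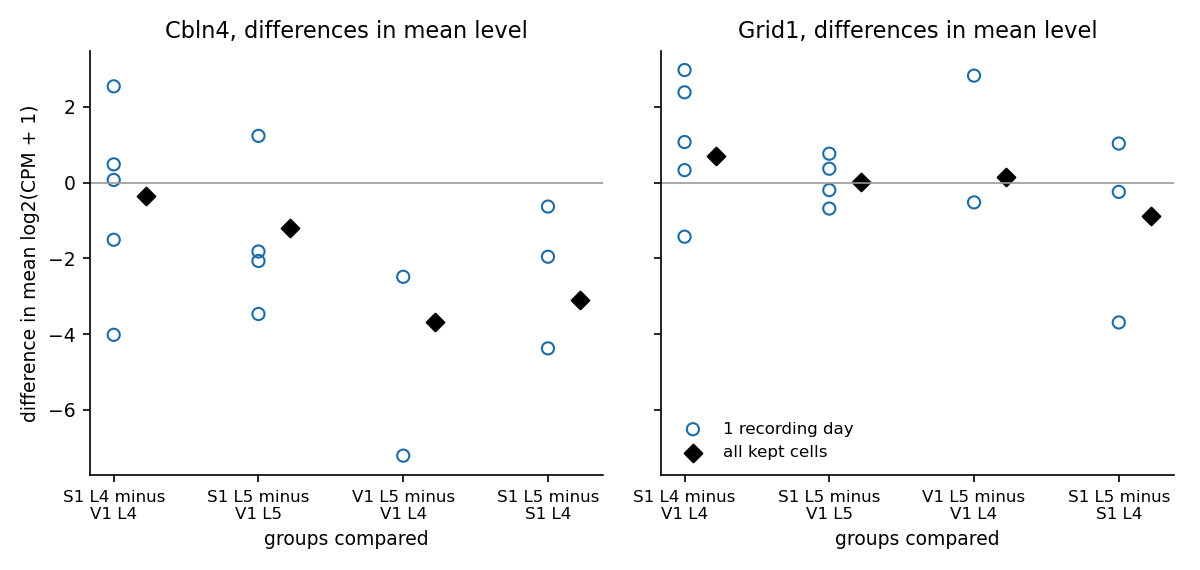
Differences in mean log2(CPM + 1) for *Cbln4* (left) and *Grid1* (right) in the 4 comparisons, with an open circle for a recording day that held 2 or more cells of both groups and a black diamond for all cells compared. For *Cbln4* the circles of both layer comparisons lie below 0, at -0.63 or lower, and those of the area comparisons lie on both sides of 0, as do those of *Grid1* in every comparison.

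The other 3 cerebellins were at or near 0. *Cbln1* had no read in any kept cell, which allows a share of up to 2.75% of cells, and 0 of 139840250 counts, which allows up to 0.0215 CPM over all kept cells. What a 0 allows is given here and elsewhere as 3 cells or counts of the total, a bound slightly lower than the upper end of the 95% exact intervals used for the other shares. *Cbln2* was read in 2 cells, with 2 counts in a V1 L4 cell and 59 counts in an S1 L4 cell. *Cbln3* was read in 2 V1 L4 cells, with 72 and 2 counts. All 4 of these cells also had *Cbln4* reads, with 280, 3, 311 and 887 counts in the order just given, and 3 of them had *Grid1* reads, with 15, 17 and 196 counts. Both cells with *Cbln2* also held *Slc17a7* reads, 58 and 30 counts beside 2464 and 2922 counts of *Gad1* and *Gad2*, whereas both cells with *Cbln3* held none. None of the 33 L5 cells had a read of *Cbln1*, *Cbln2* or *Cbln3*, which allows a share of up to 9.09% for each.

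*Grid1*, the receptor gene, was read in a minority of cells at a low level, and its differences between groups were smaller than their spread over days. It spans 763272 bases of chromosome 14 (34820108 to 35583379, plus strand, GRCm38) with 16 exons. Within this span 4 other genes of the annotation overlap it, none of them protein coding. Overlap with its exons was not examined, so whether their reads enter its counts is not known. In L4 *Grid1* was detected in 16 of 42 V1 cells (38.1%, 23.6 to 54.4) and 15 of 34 S1 cells (44.1%, 27.2 to 62.1). In L5 it was detected in 6 of 17 V1 cells (35.3%, 14.2 to 61.7) and 8 of 16 S1 cells (50.0%, 24.7 to 75.3). The pooled level was 14.8 CPM for V1 L4 (13.7 to 15.8), 20.03 for S1 L4 (18.8 to 21.3), 28.1 for V1 L5 (25.8 to 30.6) and 23.6 for S1 L5 (21.5 to 25.9). These pooled values order the groups differently from the means over cells, and a single cell gave 59.9% of the counts in V1 L5 and 46.5% in S1 L5.

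Counts of *Grid1* in the cells that had any reached 196 in V1 L4 and 186 in S1 L4, and in L5 they reached 325 in a V1 cell and 213 in an S1 cell. The highest cell of each group was at a log2(CPM + 1) of 6.92, 7.59, 7.47 and 7.80, and the median cell was at 0 in each group but S1 L5, where it was at 0.37. The count threshold of 32 was met by 8, 8, 4 and 2 cells, so at this depth the share of cells with *Grid1* depends on how many reads are asked for. Thinned to 250000 reads per cell, *Grid1* was read in 30.95% and 44.1% of the L4 cells of V1 and S1 and in 40% of the L5 cells of each. The differences in mean log2(CPM + 1) were 0.69 for S1 minus V1 in L4 (SD over 5 days 1.74, higher in 4 of 5 days), 0.02 in L5 (SD 0.63), 0.16 for L5 minus L4 in V1 (SD 2.37) and -0.89 in S1 (SD 2.44). Each was smaller than its SD over days, and *Grid1* passed the filter only for the area comparison in L4.

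Levels of different genes were compared as RPKM, the deposited level that is also divided by transcript length. The mean RPKM over kept cells was 58.8 for *Cbln4*, 5.95 for *Grid1*, 0.191 for *Cbln2*, 0.0714 for *Cbln3* and 0 for *Cbln1*, beside 2461 for *Sst* and 67.9 for *Hpse*. Among 17614 genes with a mean above 0, *Cbln4* ranked 1314 from the top and *Grid1* 8656. By group, *Cbln4* was at 89.3 RPKM for V1 L4, 64.9 for S1 L4, 22.98 for V1 L5 and 3.81 for S1 L5, and it was above *Grid1* in the first 3 groups. In S1 L5 *Grid1* had a mean of 6.62 RPKM with a single cell at 65.97, and without the highest cell of each gene, left out after seeing the data, the means there were 2.66 for *Grid1* and 1.73 for *Cbln4*.

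**Figure D3:**
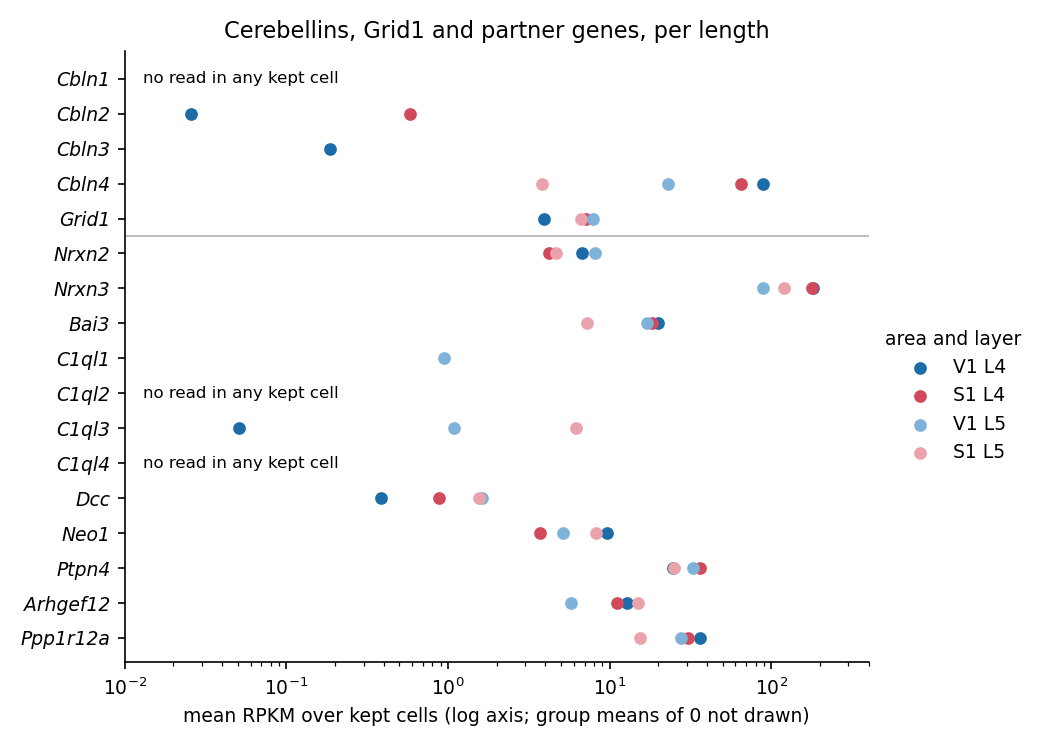
Mean RPKM over the kept cells of each area and layer, on a log axis, for the 5 members (above the line) and 12 of 14 partner genes, with a point for each group whose mean is above 0. *Nrxn3* lies farthest to the right, *Cbln4* spreads from 3.81 in S1 L5 to 89.3 in V1 L4, and *Cbln1*, *C1ql2* and *C1ql4* have no read in any kept cell.

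Genes of proteins that meet cerebellins or delta receptors formed a list of 14. Of the neurexins, the presynaptic receptors of cerebellins, *Nrxn3* had a mean of 157.05 RPKM, the highest of the list, and *Nrxn2* had 5.85. *Nrxn3* was read in 99.1% of kept cells and *Nrxn2* in 80.7%. *Ptpn4*, a phosphatase that binds delta receptors, had 29.6 RPKM, and *Ppp1r12a*, a myosin phosphatase subunit, had 29.96. Of the netrin receptors, *Neo1* was read in 60 cells and *Dcc* in 22. The related secreted proteins were nearly absent, as *C1ql2* and *C1ql4* had no read, *C1ql1* was read in 1 cell and *C1ql3* in 6, while *Adgrb3*, the adhesion receptor of this protein group, listed under its older symbol *Bai3*, was read in 86. A further gene of the list was read in 4 cells.

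In each comparison 8 of the 14 partner genes passed the filter. In the area comparison in L4 none of them was called, and their median difference was -0.22 beside 0.01 for all genes tested. In L5, 1 was called, *Arhgef12*, a guanine nucleotide exchange factor, higher in S1 by 2.58 (SD over 4 days 1.60), and it was read in 15 of 16 S1 and 10 of 17 V1 cells. Between the layers of V1, 2 were called, with *Nrxn2* higher in L5 by 1.23 (SD over 2 days 1.62) and *Nrxn3* lower, with a difference of -1.49 (SD 0.998). *Nrxn2* differed by less than its SD, and its difference was below the size asked for without recording day 1 or 3 (0.96 and 0.92) and was lowest, at 0.54, with a pseudocount of 10. Between the layers of S1, *Neo1* was higher in L5 by 2.29 (SD over 3 days 0.32) and *Ptpn4* had a difference of -1.57 (SD 0.91). The netrin receptor *Neo1* was read in 12 of 16 S1 L5 cells and 5 of 16 S1 L4 cells of the first series, and it passed the filter through its L5 cells, as 7 L5 and 3 L4 cells reached 32 counts, the smallest number allowed. In V1 *Neo1* differed by -0.63 (SD 3.84). With 1 or 2 called of 8, these shares stand beside 12.7% to 18.5% of all genes and say nothing particular about the list.

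Joint detection asks in which cells the members were read together. *Cbln4* and *Grid1* were read together in 26 of the kept cells, *Cbln4* alone in 32, *Grid1* alone in 19 and neither in 32. In V1 L4, *Cbln4* was read in 13 of 16 cells with *Grid1* (81.2%, 54.4 to 96.0) and 15 of 26 without (57.7%, 36.9 to 76.6), and in S1 L4 in 11 of 15 (73.3%, 44.9 to 92.2) and 12 of 19 (63.2%, 38.4 to 83.7). In V1 L5 it was read in 2 of 6 cells with *Grid1* (33.3%, 4.33 to 77.7) and 3 of 11 without (27.3%, 6.02 to 61.0), and only in S1 L5 was the order the other way, with 0 of 8 (0%, 0 to 36.9) and 2 of 8 (25%, 3.19 to 65.1). The intervals overlap in each of these pairs, but they cover counting error only. No difference in *Cbln4* between cells with and without *Grid1* was tested, and none is concluded. L4 cells with *Grid1* had a median total of 1231282 counts and those without 1054735.

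*Cbln4* was set beside the other genes in the names of the somatostatin types to which L4 cells were assigned in the study, *Hpse*, *Calb2*, which encodes the calcium-binding protein calretinin, and *Pdlim5*, which encodes a cytoskeletal adaptor. Cells were split by at least 1 read of the gene, not by the type that the study assigned from many genes. The shares therefore do not say how *Cbln4* differs between the assigned types. *Hpse* and *Cbln4*, which share a type name, showed no excess of joint reads in L4. In V1 L4, *Cbln4* was read in 14 of 22 cells with *Hpse* (63.6%, 40.7 to 82.8) and 14 of 20 without (70.0%, 45.7 to 88.1), and in S1 L4 in 15 of 23 (65.2%, 42.7 to 83.6) and 8 of 11 (72.7%, 39.03 to 94.0). In L5 it was read in 4 of 10 cells with *Hpse* (40%, 12.2 to 73.8) and 3 of 23 without (13.04%, 2.78 to 33.6). With *Pdlim5* it was read in 11 of 15 L4 cells (73.3%, 44.9 to 92.2) and without it in 40 of 61 (65.6%, 52.3 to 77.3).

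*Calb2*, a gene in the name of the other type, was read with *Cbln4* in most cells that had it. *Cbln4* was read in 17 of 20 V1 L4 cells with *Calb2* (85.0%, 62.1 to 96.8) and 11 of 22 without (50.0%, 28.2 to 71.8), in 5 of 5 S1 L4 cells with it (100%, 47.8 to 100) and 18 of 29 without (62.1%, 42.3 to 79.3), and in 3 of 3 V1 L5 cells with it (100%, 29.2 to 100) and 2 of 14 without (14.3%, 1.78 to 42.8). None of the 16 S1 L5 cells had a *Calb2* read, which allows a share of up to 18.8%. Over all L4 cells the shares were 88.0% (68.8 to 97.5) and 56.9% (42.2 to 70.7), whose intervals overlap slightly. In 8 recording days that held L4 cells of both kinds, the share with *Cbln4* was higher in the cells with *Calb2* in 7 days and equal in 1. Only 5 of these days held at least 2 cells of both kinds, all of them among the 7, and the other 2 rest on 1 cell with *Calb2* each.

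Splitting L4 cells by both type genes gave the same order. *Cbln4* was read in 6 of 6 cells with *Hpse* and *Calb2* (100%, 54.1 to 100), in 16 of 19 with *Calb2* alone (84.2%, 60.4 to 96.6), in 23 of 39 with *Hpse* alone (59.0%, 42.1 to 74.4) and in 6 of 12 with neither (50.0%, 21.1 to 78.9). The cells with *Calb2* were sequenced more deeply, at a median of 1375005 counts beside 1001189 in L4 cells without it. At 250000 reads per cell the shares were again 88.0% and 56.9%. The part of depth in the pairing of these genes was not tested further.

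**Figure D4:**
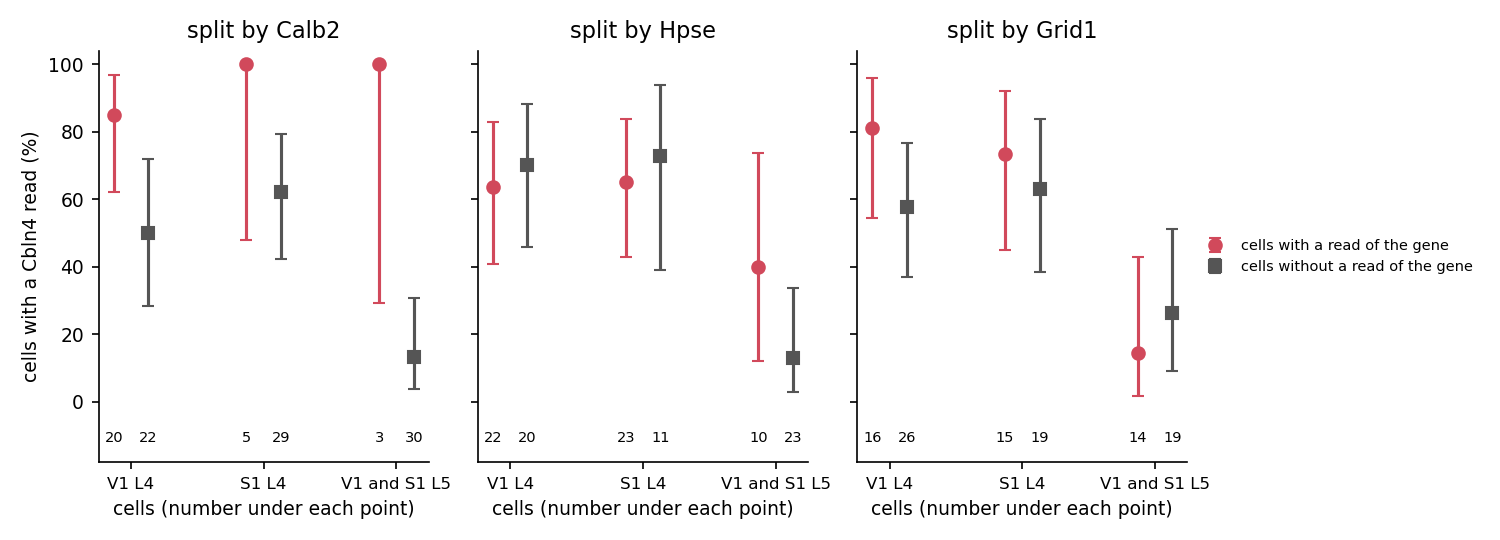
Share of cells with a *Cbln4* read among cells with (circles) and without (squares) a read of *Calb2*, *Hpse* or *Grid1*, in V1 L4, S1 L4 and all L5 cells, with 95% Clopper-Pearson intervals and the number of cells under each point. The circles lie above the squares for *Calb2* in each group of cells (85.0% and 50.0% in V1 L4), and for *Hpse* and *Grid1* they lie on either side.

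*Cbln4* was among the genes that vary most between these cells, and *Grid1* was not. In a ranking of genes by how many more cells stayed below 32 counts than the level of the other cells predicts, *Cbln4* was at rank 93 of 9993 genes, *Calb2* at 110 and *Hpse* at 10, while *Grid1* was at 6020. *Cbln4* stayed below 32 counts in 48.6% of kept cells although its mean log2 count in the others was 8.18. *Grid1* stayed below it in 79.8%, with a mean of 6.56 in the others.

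The genes whose levels over the kept cells were most like that of *Cbln4* were found by Pearson's r of log2(CPM + 1) after the mean of the area and layer was subtracted, over 9992 genes. These values are a description, since cells share animals, and depth per cell enters every gene. *Nefl*, the light neurofilament chain, had the highest r (0.56), followed by *Oxtr*, the oxytocin receptor (0.48), and *Stam*, an adaptor of endosomal sorting (0.45). *Calb2* came in rank 7 with 0.40. The lowest r belonged to *Trhde*, which encodes an enzyme that degrades thyrotropin-releasing hormone (-0.36), and *Zfp804a*, a zinc finger gene (-0.33). Among genes of the pathway r with *Cbln4* was 0.10 for *Grid1*, 0.20 for *Neo1*, 0.02 for *Nrxn2* and -0.07 for *Nrxn3*.

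*Nefl*, *Oxtr* and *Trhde* were picked by r over these same cells, so shares split by them restate that choice and add no support. As shares of cells, *Cbln4* was read in 44 of 57 L4 cells with *Nefl* (77.2%) and 7 of 19 without (36.8%). In L5 it was read in 7 of 14 cells with *Nefl* and 0 of 19 without, which allows up to 15.8%. With *Oxtr* it was read in 34 of 43 L4 cells (79.1%) and without it in 17 of 33 (51.5%). All 7 L5 cells with *Cbln4* were among the 11 L5 cells with *Oxtr* reads. For *Trhde* the order was turned, with 26 of 45 L4 cells (57.8%) and 25 of 31 (80.6%). The L4 cells with *Nefl* had a median total of 1316987 counts and those without 882550, and for *Trhde* these were 1231282 and 1065500. In L5 they were 1415366 and 825925 for *Nefl*, 1504816 and 826183 for *Oxtr*, and 1013753 and 1366145 for *Trhde*. The part of depth in these shares was not tested.

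**Figure D5:**
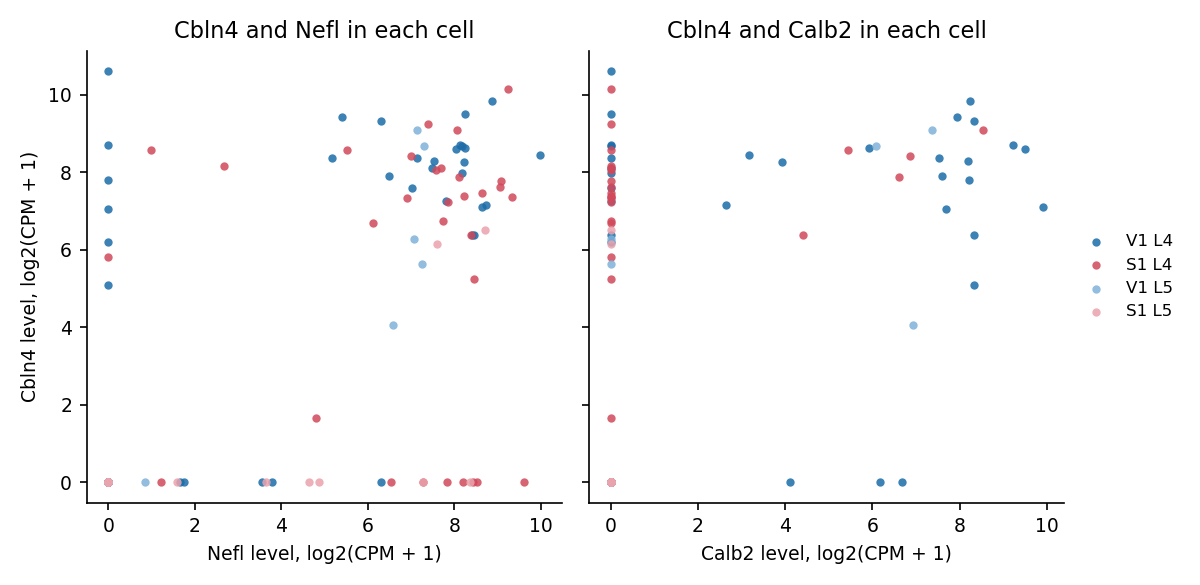
Level of *Cbln4* against *Nefl* (left) and *Calb2* (right) in each kept cell, both axes as log2(CPM + 1), coloured by area and layer. No L5 cell has *Cbln4* without *Nefl*, a gene picked by its r with *Cbln4* over these same cells. Only 3 of 28 cells with *Calb2* lie at a *Cbln4* level of 0.

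For *Grid1* the highest r belonged to *Klhl20*, an adaptor of a ubiquitin ligase (0.44), *Mmab*, an enzyme of cobalamin metabolism (0.39), and *Ube2e3*, a ubiquitin-conjugating enzyme (0.39), and the lowest to *Tjp1*, a tight junction scaffold (-0.30), and *Gas1*, a membrane protein of hedgehog signalling (-0.27). *Grid1* was read in 21 of 29 cells with *Klhl20* (72.4%) and 24 of 80 without (30%). It was read in 2 of 19 cells with *Gas1* (10.53%) and 43 of 90 without (47.8%). These shares, too, restate a choice made by r over the same cells. The 26 cells with both *Cbln4* and *Grid1* did not come from a single group, as 13 were V1 L4, 11 S1 L4 and 2 V1 L5 cells.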

How the data were processed

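Patch-seq libraries of single SOM+ cells were sequenced from one end and, per the labels, demultiplexed with bcl2fastq 2.20 and aligned to mm10 with STAR 2.4.2a. The authors deposited read counts per gene and RPKM values, which they computed with RefSeq gene models. Reads carry no molecular identifiers or strand, so they are not independent molecules. Counts of repeated symbols (24490 entries, 23998 symbols) were summed. CPM used the total count of the cell, and levels are log2(CPM + 1). Groups are the labelled areas and layers. Recording days are the 9 dates in the sample titles, and the labels do not say what was done on these dates. The 2 series group these dates and were set here. Left out were 4 cells with under 1500 genes, 1 glutamatergic cell and 4 cells without *Sst* reads. Computation used SciPy 1.17.1, pandas 2.3.3 and NumPy 2.4.6 under Python 3.11.15 and, for another scaling, edgeR 4.0.16 (R 4.3.3). The area comparison in L4 was also run on simulated counts with known changes and no effect of days. Only the sign of the changes and the median of unchanged genes were checked, and the layer comparisons were not simulated. Sequences and positions came from GENCODE M21 (GRCm38).

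Genes named were the 5 members, partner genes that were called or among the 3 with the highest mean RPKM, the 3 highest and 2 lowest by r for members read in at least 20 cells, and genes of the type names. Partner genes outside this rule were named after their values were seen. Some genes of the partner list are counted but not reported here. Members and lists were chosen with earlier results of these data known. Alternatives covered scaling, pseudocount, depth, cell filters, detection limits, recording series and days.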

Additional observations from a re-analysis of the deposited data

Results flagged for a closer look

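Members were also read in cells that the cell filters left out, which the comparisons do not use. *Cbln4* had 322 counts in the 4 cells with under 1500 genes, all in 1 V1 L4 cell with 2075 *Sst* counts. *Grid1* had 32 counts in the glutamatergic V1 L5 cell, which was also the only cell, kept or not, with *Cbln1*, at 3 counts. The 4 S1 L4 cells without an *Sst* read, all with *Pvalb* reads (29 to 2662 counts), held 99 counts of *Cbln2* in 2 cells and 35 counts of *Grid1* in 1, and no *Cbln4*. No explanation was tested for these reads.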

How the results depend on the processing

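Of 184 values for *Cbln4*, *Grid1*, their joint detection and the numbers of called genes under an alternative, all but 9 stayed within the SD over days, the 95% interval or 1.5 times the value reported, and none of the called differences, partner genes included, changed sign. The SD over days was as wide as 3.34. A difference that was not called could change sign within it, as *Cbln4* between areas in L4 did, from -0.35 to 0.96 in the second series. For *Grid1* between areas in L5, 6 of 12 alternatives kept the sign. Among all 812 values, which add those of further genes, 88 moved past their limits. As a median over cells the layer difference of *Cbln4* in V1 was -7.27. Without a filter on low counts 1490 genes were called between the layers of S1. At 32 counts *Grid1* was read in 19.05% of V1 L4, 23.5% of S1 L4 and 12.5% of S1 L5 cells. In L4 cells only, an alternative added after the data were seen, *Cbln4* was read in 77.4% of cells with *Grid1*, 56.9% of cells without *Calb2*, 71.0% without *Hpse* and 65.6% without *Pdlim5*, against 57.8%, 40.7%, 46.3% and 52.8% over all kept cells, which include the L5 cells with few *Cbln4* reads.

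Leaving out recording days in turn, the *Cbln4* difference ran from -4.20 to -2.82 between the layers of V1 and from -3.77 to -2.61 in S1, and in L5 between areas from -2.00 to -0.83. Its area difference in L4, which was not called, was -1.79 in the first recording series and 0.96 in the second. For *Grid1* it ran from 0.49 to 0.91 between areas in L4 and from -0.24 to 0.35 in L5. Below the size asked for under some alternatives were *Nrxn3* between the layers of V1 (-0.79 with at least 4000 genes per cell), *Ptpn4* in S1 (-0.43 as a median over cells) and *Arhgef12* in L5 (0.91 as a median). The cause was not tested. Replicate numbers only name cells and pair none. As a mean of the differences within recording days, *Cbln4* differed by -0.49 and -1.53 between areas in L4 and L5 and by -4.85 and -2.32 between the layers of V1 and S1. *Grid1* had 32 counts in 22 of the 45 cells with a read.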
